A study of Mus musculus with 2 samples.

Results

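The proteasome subunit genes described here are the mouse genes whose symbols start with Psma, Psmb, Psmc, Psmd, Psme, Psmf or Psmg followed by a number, and they were chosen by a minimum of 50 summed UMI (unique molecular identifiers, each counting 1 captured transcript). Of 31053 genes in the matrix, 48 matched these symbols and 47 passed that minimum. Psma8, with 72 UMI, was the member just inside the limit, and Psmb11, with 6 UMI, was the only symbol outside it. The counts came from immune cells of the mouse liver, freed with collagenase IV, sorted and loaded on the 10x Genomics Chromium system. The labels name 1 control sample (genotype WT, in the title a mouse with a floxed Rcrin gene) and 1 Rcrin knockout sample (genotype Rcrin KO, a conditional knockout in the liver). Both carry the strain label RedMUC298trTg and an age of 8 weeks; the sources used here do not name the Cre driver.

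The matrices, gene lists and barcode lists deposited for the 2 labelled samples were identical byte for byte, so all 11192 barcodes were shared and the counts are 1 library of unknown genotype. No comparison of genotypes was made, no value has a replicate error, and no test was run. Intervals are exact 95% intervals and cover counting error only, not the variation between animals or between cells. Of the 10015 cells kept, 8482 (84.7%) were assigned to 13 types by marker genes, with 45064450 UMI and a median of 4023.5 UMI per cell. All type names mean cells that resemble the type by these markers. The labels call the cells immune cells, yet 852 of them carried a median of 12 of the 12 markers of liver sinusoidal endothelium, the lining of the smallest liver vessels. The other types ranged from 2915 B-like cells to 23 ILC1-like cells (innate lymphoid cells related to NK cells).

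The proteasome is the protease that degrades proteins tagged with ubiquitin. Its barrel-shaped core is made of alpha rings (Psma), which gate the entrance, and beta rings (Psmb), which hold the proteolytic sites. In the constitutive core these sites are carried by Psmb5, Psmb6 and Psmb7. Interferon gamma induces Psmb8, Psmb9 and Psmb10, which replace Psmb5, Psmb6 and Psmb7 in that order and form the immunoproteasome, known for making peptides that fit MHC class I. The regulatory particle binds the ends of the core with a ring of ATPases (Psmc) and further subunits (Psmd), while the activators Psme1 and Psme2 form an alternative cap that is also induced by interferon gamma. By role, the 47 genes comprised 8 alpha ring subunits, 4 other beta ring subunits, 3 constitutive and 3 induced catalytic subunits, 6 base ATPases, 11 other regulatory particle subunits, 4 activators, 1 inhibitor (Psmf1) and 7 assembly chaperones (Psmd5, Psmd9, Psmd10 and Psmg1 to Psmg4).

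The induced and constitutive genes lie apart in the genome (coordinates of the GENCODE M21 annotation on GRCm38). Psmb8 spans chr17:34197721-34201454 on the plus strand and Psmb9 spans chr17:34181987-34187764 on the minus strand, where its annotation overlaps that of Tap1, a subunit of the peptide transporter for class I antigen presentation. Psmb10 spans chr8:105935735-105938444, Psmb5 chr14:54614119-54618022 and Psmb7 chr2:38588036-38644087, all on the minus strand, and Psmb6 spans chr11:70525367-70527858 on the plus strand. By annotation, Psmb8 overlaps Gm20496, Psmb10 overlaps Gm16156, Psmb7 overlaps Nek6 and Psme1 overlaps Emc9. The sources used here do not say how reads in overlapping genes were counted.

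Short promoter stretches are shown for 2 interferon-induced and 2 constitutive genes, because the motifs they hold are those bound by factors of the interferon response and by the factors that raise proteasome genes under stress. They were read from RefSeq windows (build GRCm38.p6) of 250 bases before to 50 bases after the transcription start, and 39 of the 47 members had such a window. All are written from 5′ to 3′ on the gene's own strand, with the motif in capitals and 10 bases on each side.
Psmb8, chr17:34198088-34198116, plus strand, interferon gamma activated site TTCNNNGAA: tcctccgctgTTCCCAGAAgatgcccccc
Psme1, chr14:55578493-55578522, plus strand, interferon-stimulated response element (GAAA, any 2 bases, GAAA) on the reverse strand: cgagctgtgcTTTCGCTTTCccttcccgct
Psmb5, chr14:54618024-54618052, minus strand, antioxidant response element TGACNNNGC: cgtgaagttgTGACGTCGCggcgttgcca
Psmb6, chr11:70525338-70525366, plus strand, antioxidant response element TGACNNNGC: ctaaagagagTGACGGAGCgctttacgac
The interferon gamma activated site in Psmb8 began 97 bases before its start, and the antioxidant response elements began 47 bases before the start of Psmb5 and 9 bases before that of Psmb6. The interferon-stimulated response element in Psme1 began 9 bases after the start. These distances are from the RefSeq start of each window, which can differ from the end of the GENCODE gene: the stretches of Psmb8 and Psme1 lie inside the GENCODE spans of their genes, and those of Psmb5 and Psmb6 just outside.

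Both strands were searched, and overlaps between motifs were kept. The activated site stood in 3 of 42 windows of the members (Psmb8, Psmd2 and Psmg1; 7.14%) and in 8.30% of all 32851 windows. The interferon-stimulated element stood in 5 of 42 (Psme1, Psmg4, Psmb3, Psmd4 and Psmd9; 11.9%) and in 3.44% of all windows. The antioxidant element stood in 6 of 42 (Psmb5, Psmb6, Psme4, Psmd9, Psmd12 and Psmc6; 14.3%) and in 12.4% of all windows. The windows of Psmb9 and Psmb10 held none of these letters. Such matches describe sequence only and were not set against the levels below.

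The induced subunits made up most of the catalytic transcripts in each of the 13 types. Their share is the summed UMI of Psmb8, Psmb9 and Psmb10 over the UMI of all 6 catalytic genes, and it does not depend on the total UMI of a type. Over all typed cells it was 67.2% (66.7% to 67.7%), from 26576 induced and 12963 constitutive UMI. Because capture may differ between genes and the counts are not divided by transcript length, the share is read across types and not as the make-up of the protein complex.

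cDC1-like cells, the conventional dendritic cells that cross-present antigen on class I, had the highest share, 78.8% (77.0% to 80.6%), from 1632 induced and 438 constitutive UMI in 54 cells. ILC1-like cells followed at 76.1% (67.3% to 83.5%), an interval that holds the cDC1-like value. The neutrophil-like share was 73.5% (70.5% to 76.3%). These 3 types had the highest values, and the neutrophil-like interval did not reach the cDC1-like one. The ILC1-like and neutrophil-like intervals both overlapped that of the next type, plasmacytoid dendritic-like cells (70.0% to 73.5%).

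Plasmacytoid dendritic-like cells had a share of 71.7%, nonclassical monocyte-like cells 71.1%, T-like cells 70.8%, basophil-like cells 70.2%, classical monocyte-like cells 69.2% and Kupffer-like cells, macrophages that reside in liver vessels, 68.8%. Neighbours in this middle band had intervals that overlapped. NK-like cells stood lower at 64.1% (62.0% to 66.1%) and B-like cells at 63.4% (62.2% to 64.5%).

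Plasma-like cells, which secrete antibody, had the lowest share, 54.4% (51.2% to 57.7%). Sinusoidal endothelial-like cells had 54.9% (53.5% to 56.4%), from 2529 induced and 2074 constitutive UMI. The order of these lowest types lay within counting error, and both lay below the B-like interval.

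**Figure D1:**
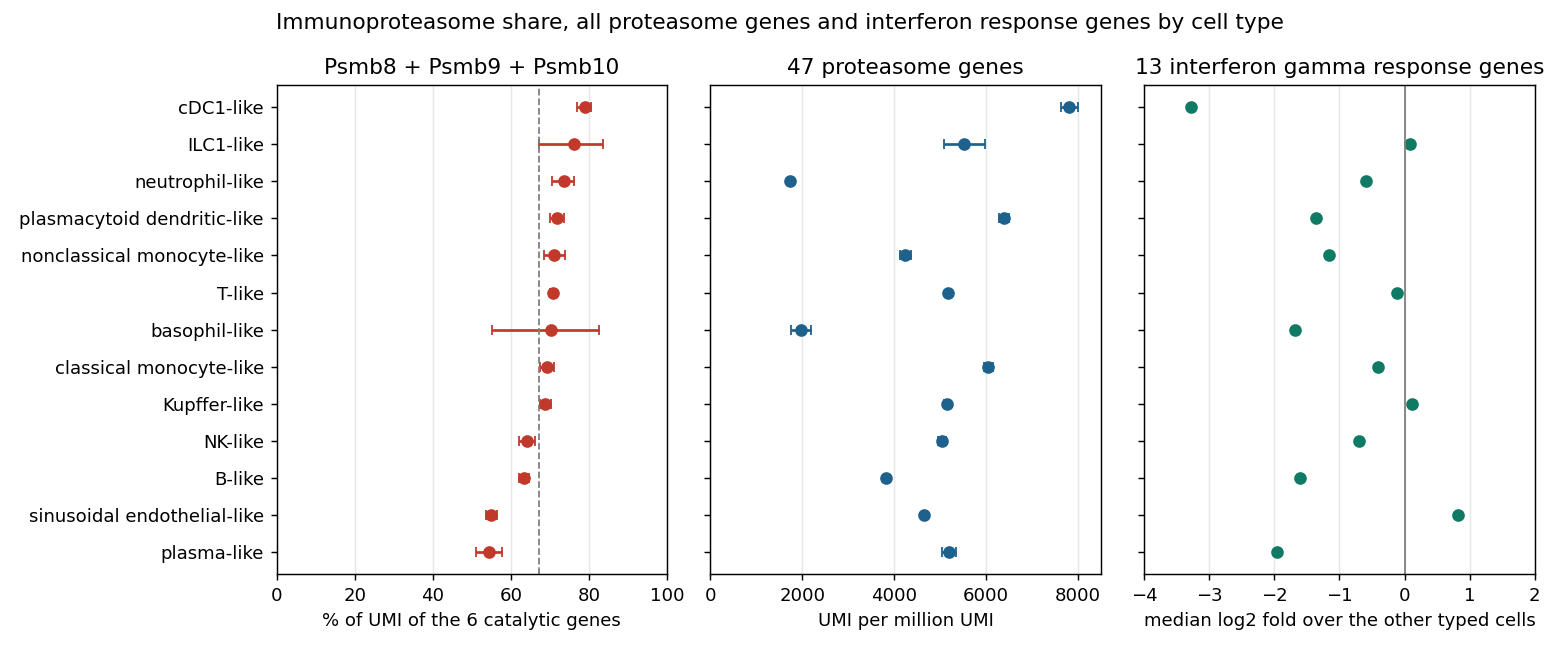
Each row is a marker-assigned cell type of 1 library, ordered by the left panel, which plots Psmb8, Psmb9 and Psmb10 as a percentage of the UMI of the 6 catalytic genes with exact 95% intervals and, as a dashed line, the value over all typed cells (67.2%). The middle panel plots the summed UMI of the 47 proteasome genes per 1000000 UMI with exact intervals, and the right panel the median log2 fold of 13 interferon gamma response genes over the other typed cells. cDC1-like cells are highest in the left and middle panels and lowest in the right one (-3.27), while sinusoidal endothelial-like cells are near the bottom of the left panel and highest in the right one (0.82).

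The 3 substitutions did not move together. Each was read as the UMI of the induced gene over that of the subunit it replaces. Psmb8 exceeded Psmb5 in each of the 13 types, by 3.0-fold over all typed cells. The ratio of Psmb8 to Psmb5 was 5.39 (4.58 to 6.37) in cDC1-like cells, 4.07 (3.55 to 4.68) in plasmacytoid dendritic-like cells and 3.57 (3.36 to 3.79) in T-like cells. It was smallest in sinusoidal endothelial-like cells, 1.39 (1.26 to 1.53), and next smallest in plasma-like cells, 1.75 (1.44 to 2.12). Basophil-like cells had 24 UMI of Psmb8 and 3 of Psmb5, so their ratio of 8.0 had an interval of 2.43 to 41.5.

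Psmb9 to Psmb6 separated the types differently. The ratio was 5.89 (4.40 to 8.01) in neutrophil-like cells, from 318 and 54 UMI, and 4.72 (3.88 to 5.78) in cDC1-like cells. The third was 2.44 in ILC1-like cells, on 22 and 9 UMI, and 1.40 with cells assigned by clusters. Kupffer-like cells had 1.89 (1.69 to 2.12). Sinusoidal endothelial-like cells had the 2 genes at nearly equal counts, 1.02 (0.929 to 1.13), as did B-like cells, 1.04 (0.954 to 1.14). In plasma-like cells Psmb6 exceeded Psmb9, with a ratio of 0.734 (0.581 to 0.926).

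Psmb10 to Psmb7 put cDC1-like and neutrophil-like cells at the other end of the order. The ratio was 2.83 (1.07 to 8.78) in ILC1-like cells, on 17 and 6 UMI, 2.3 (1.88 to 2.83) in plasmacytoid dendritic-like cells, 2.12 (1.77 to 2.55) in classical monocyte-like cells and 2.08 (1.83 to 2.38) in Kupffer-like cells. It was 0.845 (0.657 to 1.09) in cDC1-like cells and 0.375 (0.238 to 0.577) in neutrophil-like cells, from 30 and 80 UMI. The cDC1-like value stood at 1.07 when cells were assigned by clusters, so which of Psmb10 and Psmb7 was higher there depended on the assignment. Of the 3 ratios, Psmb8 to Psmb5 and Psmb9 to Psmb6 were thus above the value over all typed cells in cDC1-like cells. In neutrophil-like cells only Psmb9 to Psmb6 was, against 1.42 over all typed cells, while Psmb8 to Psmb5 was 2.97 (2.40 to 3.69) against 3.0.

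**Figure D2:**
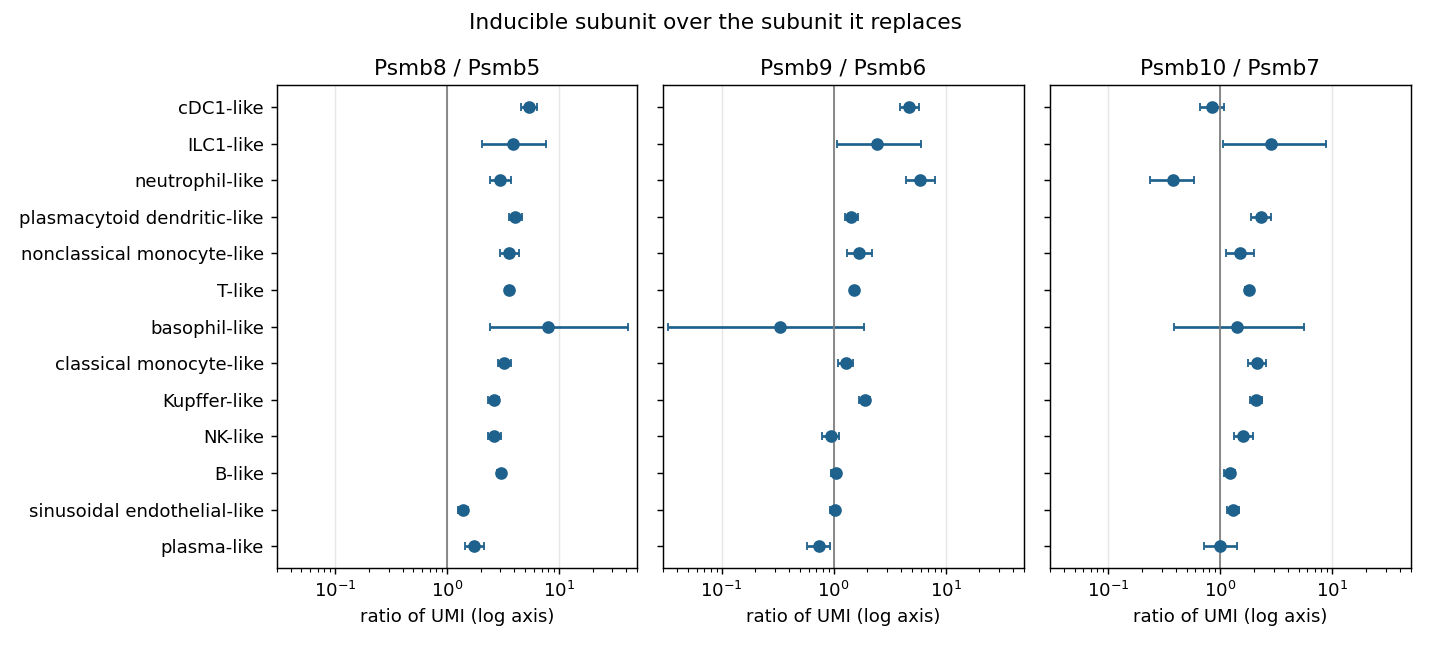
Ratios of the UMI of each induced subunit to the constitutive subunit it replaces, by marker-assigned type of 1 library, on a log axis with exact 95% intervals; a ratio of 1 means equal counts. Neutrophil-like cells have the highest Psmb9 to Psmb6 ratio (5.89) and the lowest Psmb10 to Psmb7 ratio (0.375).

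By level, Psmb8 was the most abundant catalytic transcript over all typed cells, at 325 UMI per 1000000 UMI (CPM). Over the 13 types Psmb8 ran from 138 CPM in neutrophil-like cells through a median of 359 to 983 (920.5 to 1048) in cDC1-like cells. It was 1.64-fold (1.5 to 1.8) higher in cDC1-like than in plasmacytoid dendritic-like cells, the next type, at 597 CPM. Sinusoidal endothelial-like cells had 156 CPM of Psmb8, close to the lowest levels, which were those of basophil-like and neutrophil-like cells.

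Psmb9 stood still further apart in cDC1-like cells. It had 611 CPM (563 to 663) there, 2.27-fold (2.01 to 2.57) above plasmacytoid dendritic-like cells at 269.5 CPM, against a median of 152 CPM over the types. Its lowest value, 12.7 CPM in basophil-like cells, rested on 2 UMI. Neutrophil-like cells had 126 CPM of Psmb9, 0.797-fold of the other typed cells, and were at 0.410-fold for Psmb8 and 0.105-fold for Psmb10. Psmb9 was the member with the smallest log2 difference between neutrophil-like and other cells.

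Psmb10 had no such gap at the top. It was highest in classical monocyte-like cells, 183 CPM (165 to 203), and in plasmacytoid dendritic-like cells, 180.4 CPM (161 to 201), which overlapped. The median over the types was 119 CPM, cDC1-like cells had 127 CPM, and neutrophil-like cells had 11.9 CPM.

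Of the constitutive subunits, Psmb5 and Psmb6 peaked in plasma-like cells and Psmb7 in cDC1-like cells. Psmb5 ran from 19.0 CPM in basophil-like cells through a median of 120.3 to 202 CPM in plasma-like cells, where it was 1.11-fold (0.893 to 1.38) of the cDC1-like level. Psmb6 ran from 21.5 CPM in neutrophil-like cells through a median of 111 to 207 CPM in plasma-like cells, 1.11-fold (0.916 to 1.33) of the plasmacytoid dendritic-like level. Psmb7 was highest in cDC1-like cells, 149.7 CPM (126 to 177), 1.73-fold (1.38 to 2.17) above classical monocyte-like cells at 86.3 CPM. Plasma-like cells thus led for Psmb5 and Psmb6 without standing clear of the next type, whereas cDC1-like cells did stand clear for Psmb7.

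**Figure D3:**
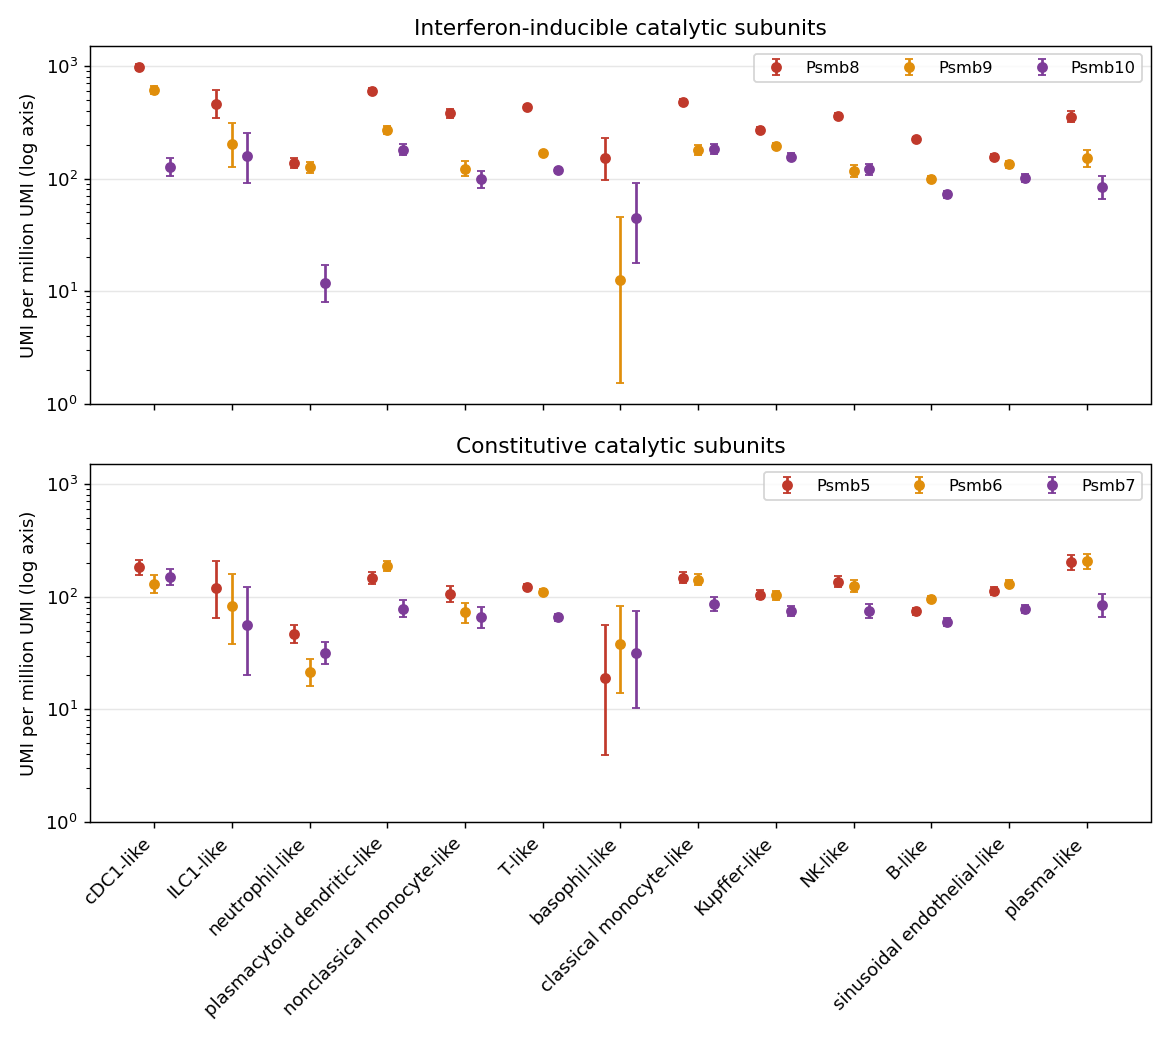
UMI per 1000000 UMI of the 3 induced (Psmb8, Psmb9, Psmb10) and the 3 constitutive (Psmb5, Psmb6, Psmb7) catalytic genes in each marker-assigned type of 1 library, on a log axis with exact 95% Poisson intervals. Psmb8 and Psmb9 are highest in cDC1-like cells (983 and 611), and Psmb10 is lowest in neutrophil-like cells (11.9).

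The interferon-induced activators followed the same types. Psme1 had 959 CPM (898 to 1024) in cDC1-like cells, 1.60-fold (1.46 to 1.74) above plasmacytoid dendritic-like cells at 601 CPM. Its partner Psme2 did not share that gap, with 369 CPM (341 to 398) in plasmacytoid dendritic-like and 367 CPM (329 to 408) in cDC1-like cells. Plasma-like cells had 168 CPM of Psme1 and the same of Psme2, since both genes had 144 UMI there. Across the 13 types the log2 levels of Psme2 correlated with those of Psmb8 at a Pearson r of 0.89 and those of Psme1 at 0.85, while Psmb8 and Psmb9 correlated at 0.72. These coefficients describe 13 types of 1 library that share low values in neutrophil-like and basophil-like cells.

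Psme3, the nuclear activator, and Psme4, an activator linked to histone turnover, were less abundant, at 41.4 and 59.5 CPM over all typed cells. From lowest to highest type, Psme4 ranged 3.36-fold and Psme3 5.78-fold, the latter close to the 5.81-fold of Psme2. Psme3 had 52.9 CPM in NK-like and 52.7 CPM in cDC1-like cells and 9.15 CPM in neutrophil-like cells. Psme4 was highest in Kupffer-like cells, 85.3 CPM, and lowest in basophil-like cells, 25.4 CPM. Neither had its peak set apart from the next type.

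Summed over the 47 genes, proteasome transcripts took the largest part of the RNA in cDC1-like cells, 7812 CPM (7635 to 7992), followed by plasmacytoid dendritic-like cells at 6389 CPM and classical monocyte-like cells at 6053 CPM. ILC1-like, plasma-like, T-like, Kupffer-like and NK-like cells lay between 5037 and 5517 CPM. Sinusoidal endothelial-like cells had 4660.1 CPM, nonclassical monocyte-like cells 4247 and B-like cells 3826. Basophil-like cells, 1968 CPM (1755 to 2199), and neutrophil-like cells, 1731 CPM (1680.1 to 1783), were lowest. These sums depend on what else a type transcribes. In neutrophil-like cells, the 50 genes most abundant there took 42.7% of the UMI. Another set, the same for all types, held the 50 genes with the highest level in any type. Without that set the sum was 2701 CPM in neutrophil-like, 2669 CPM in basophil-like, 9598 CPM in cDC1-like and 9699.8 CPM in plasma-like cells.

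The order was the same among single cells with at least 1000 UMI for the ends of the range. The median per 10000 UMI was 79.0 (quartiles 66.1 and 87.9) in cDC1-like cells, 61.3 in plasmacytoid dendritic-like cells, 36.6 in B-like cells and 15.7 (10.1 and 22.3) in neutrophil-like cells. The lower quartile of cDC1-like cells therefore lay above the median of plasmacytoid dendritic-like cells. cDC1-like cells were deep, with a median of 17236 UMI against 2539 in neutrophil-like cells. As a mean over single cells, each given equal weight, their total was 7991 CPM (cells with at least 1000 UMI) and their induced share 78.1%. No counts were thinned, and the part of depth was not tested. With called doublets kept, the total and the share were as given above. cDC1-like cells carried a median of 7 of the 8 cDC1 markers and a median of at most 2 of any other type's. In them Igkc, the antibody light chain that measures free RNA from plasma cells, was at 55.9 CPM, the lowest of the types.

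**Figure D4:**
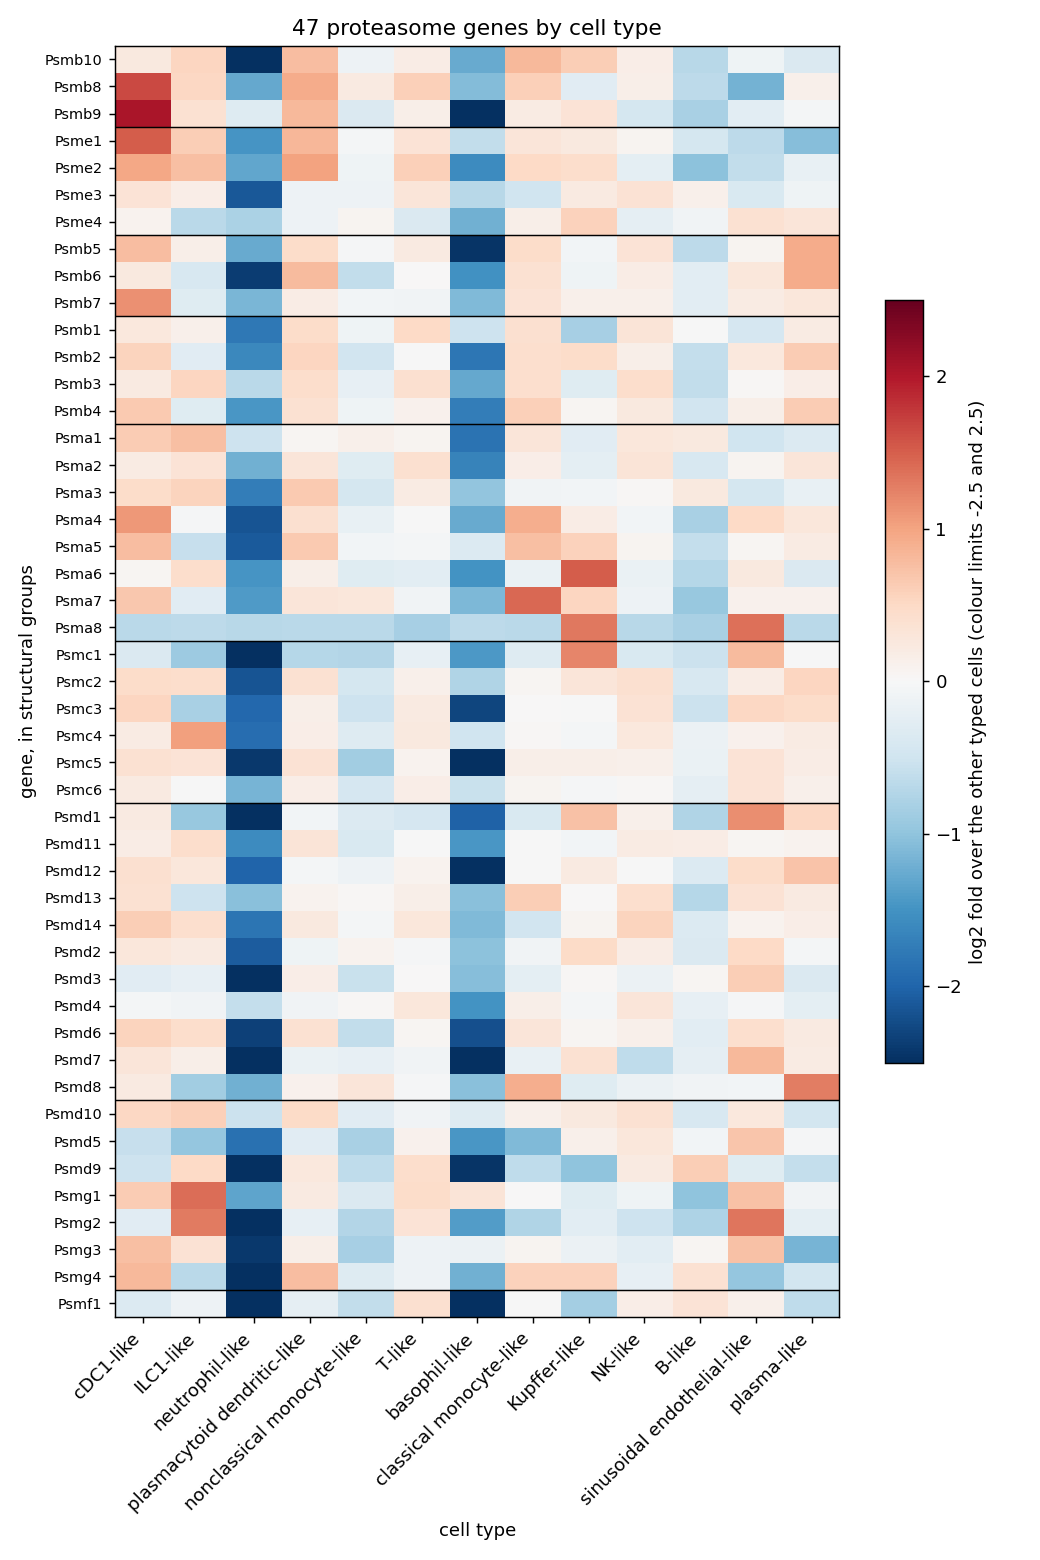
Log2 fold of each of the 47 proteasome genes (rows, grouped by role) in each marker-assigned type over the other typed cells (columns) in 1 library, computed from UMI per 1000000 UMI plus 1. Neutrophil-like and basophil-like columns are low for most members, and the strongest positive values in the cDC1-like column are Psmb9 (2.05), Psmb8 (1.66) and Psme1 (1.51).

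In cDC1-like cells, 15 of 47 members were at least 1.5-fold higher than in the other typed cells, with 1 CPM added to both levels. Over the 12424 genes with 50 or more UMI, 13.6% were that much higher. Psma8 was the 1 member at least 1.5-fold lower, with no UMI in these cells, against 45.3% of all genes. The median log2 fold of the members was 0.38 and that of all genes -0.45. Besides Psmb9, Psmb8, Psme1, Psmb7, Psme2 and Psmb5, the 15 held Psma4, Psma5, Psma7 and Psma1 of the alpha ring, Psmb4, the deubiquitinase Psmd14, and the assembly chaperones Psmg4, Psmg3 and Psmg1. Without the induced subunits and activators, the sum was 1.35-fold of the other typed cells, compared with 1.69-fold for all 47 genes and 2.31-fold for the activators.

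Plasmacytoid dendritic-like cells, the main source of type I interferon, had 9 of 47 members at least 1.5-fold higher, against 15.3% of all genes. They were all 3 induced subunits, Psme1, Psme2, Psmb6, Psmg4, Psma5 and Psma3. Psma3 was highest there at 388 CPM, and Psmb1 at 345 CPM, without standing clear of ILC1-like and classical monocyte-like cells respectively.

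Classical monocyte-like cells stood apart for 1 alpha ring subunit. Psma7, 1 of the 3 most abundant alpha ring members, was at 598 CPM (565 to 632) there, 1.59-fold (1.41 to 1.80) above cDC1-like cells and 2.73-fold above all other typed cells. Psmd8, a subunit of the regulatory particle's lid, was at 215 CPM in these cells. Nonclassical monocyte-like cells had 285 CPM of Psma7, under the classical level by more than the counting error.

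Kupffer-like cells had 5 members higher, against 18.6% of all genes, and the count ran from 3 to 8 over the other settings. Psma6 was at 263 CPM (248 to 278), 2.86-fold above the other typed cells, while the next type, ILC1-like cells, had 148 CPM on 16 UMI. Psmc1, an ATPase of the base, was at 109.9 CPM in Kupffer-like and 83.5 CPM in sinusoidal endothelial-like cells, a 1.32-fold difference (1.16 to 1.49). Both types were above the other 11, whose highest level of Psmc1 was 52.6 CPM in plasma-like cells. Psmb1 went the other way, with 148.6 CPM in Kupffer-like cells against a median of 278 over the types.

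In sinusoidal endothelial-like cells 9 of 47 members were at least 1.5-fold higher, against 31.9% of all genes. The count was 5 under a total reduced by genes of ribosomal proteins, mitochondria, hepatocytes and haemoglobin, and 4 with 10 CPM added. The 9 were Psma8, Psmc1, Psmd1, Psmd3, Psmd7 and the chaperones Psmg1, Psmg2, Psmg3 and Psmd5. The scaffold subunit Psmd1 was at 104 CPM (96.7 to 113), 1.22-fold (1.08 to 1.39) above Kupffer-like cells. Psmd7 of the lid was at 119.5 CPM, 1.25-fold (1.11 to 1.41) above Kupffer-like cells, and the chaperone Psmg2 was at 38.8 CPM, 2.64-fold above the other typed cells.

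At least 1.5-fold lower in sinusoidal endothelial-like cells were 4 members, against 29.6% of all genes, and 7 under the reduced total. They were Psmb8, Psme1, Psme2 and the chaperone Psmg4. The low members thus included 3 interferon-induced ones, whereas the base ATPases summed to 496 CPM, the highest of the types but close to 482 CPM in cDC1-like cells.

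Plasma-like cells had 6 members at least 1.5-fold higher, against 7.91% of all genes. Psmd8 led with 279 CPM (245 to 317), 1.30-fold (1.10 to 1.52) above classical monocyte-like cells, and the others were Psmb6, Psmb5, Psmd12, Psmb4 and Psmb2. The regulatory particle sum of 1057 CPM was the highest of the types, and the activator sum of 449 CPM was 0.697-fold of the other typed cells. The 50 genes most abundant in plasma-like cells took 53.4% of their UMI, so levels there depended on the total. Without the set of 50 genes with the highest level in any type, the sum of the 47 members was 9699.8 CPM instead of 5200.4. With that set left out 27 members were higher, while under the reduced total 3 were.

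B-like cells had 16 of 47 members at least 1.5-fold lower, against 37.0% of all genes, with 8 under the reduced total and 10 with 10 CPM added. The assembly chaperone Psmd9 was their 1 higher member, at 53.9 CPM. ILC1-like cells had 55.5 CPM of Psmd9 on 6 UMI, and T-like cells 49.1 CPM.

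Neutrophil-like cells had 44 of 47 members at least 1.5-fold lower, but 72.9% of all genes were that much lower as well. The members' median log2 fold was -1.79 and that of all genes -1.48, and S100a9 alone, a calcium-binding protein gene abundant in neutrophils, had 96327 CPM. The exceptions were Psmb9, Psma1 and Psmd10. Assembly chaperones were low, with 35.4 CPM in sum, or 0.199-fold of the other typed cells, and Psmg4 had 2.78 CPM there against 78.0 CPM in cDC1-like cells. Basophil-like cells had 40 members lower, against 69.3% of all genes. Psmd12 and Psmf1 had no UMI in 157542 UMI, which gives an exact upper limit of 23.4 CPM for each.

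Among the remaining members, Psma8, the alpha subunit of the testis, was counted in Kupffer-like cells (11 UMI, 2.42 CPM) and sinusoidal endothelial-like cells (15 UMI, 2.32 CPM) and had no UMI in the other 11 types. Only 26 of its 72 UMI fell in typed cells, and the rest lay in called doublets or cells outside the 13 types. Psmf1, the inhibitor, was at 24.9 CPM in T-like and 24.4 CPM in B-like cells. Over the 47 members the highest level fell in cDC1-like cells for 13, in the 23 ILC1-like cells for 9, in plasma-like cells for 6, in Kupffer-like and in sinusoidal endothelial-like cells for 5 each. The lowest fell in neutrophil-like cells for 28 and in basophil-like cells for 18.

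Within types, cells were split by marker genes chosen after the types had been seen. Among T-like cells, 856 with Cd8b1 and no Cd4 had 5140.2 CPM of the 47 members, and 426 with Cd4 and no Cd8 gene had 5268 CPM. Their induced shares were 69.9% and 70.9%, with overlapping intervals. T-like cells with at least 2 of the division genes Mki67, Top2a, Cdk1 and Birc5 numbered 122 and had 7599 CPM, against 4781 CPM in the other 1863. Dividing cells had 223 CPM of Psmb5 against 105 CPM, and 621 CPM of Psmb8 against 404 CPM. Their induced share was 67.6% (65.8% to 69.4%) against 71.7% (70.7% to 72.6%), so the total was higher and the share lower. Their median depth was 12540.0 UMI against 4987, and its part in the result was not tested.

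Among Cd8b1 cells without division genes, 550 with at least 2 of the effector genes Ccl5, Nkg7, Gzmb and Gzmk had 4844 CPM, and 235 without had 3924.5 CPM. Psmb8 was at 397 CPM (374 to 419.5) against 271 CPM (244 to 299.5), and Psmb10 at 126 CPM against 74.0 CPM. Psme1 was at 407 and 403 CPM. The shares, 70.9% and 71.1%, overlapped, and Psmb5 stood at 112 CPM against 64.6 CPM. Psmb9, at 146 CPM (133 to 160) against 125 CPM (107 to 145), had overlapping intervals. So did Psmb7, at 56.6 CPM (48.5 to 65.7) against 49.6 CPM (38.6 to 62.7). Effector-gene cells thus had larger sums of both sets, 668 against 470 CPM of induced and 274 against 191 CPM of constitutive subunits. This holds for the sums and not for each gene or pair.

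Plasma-like cells with division genes, 12 of 45, had 7196 CPM of the members against 4164 CPM in the other 33, and 305 CPM of Psmb6 against 156 CPM. Their median depth was 21104 UMI against 17693. The parts of depth and of antibody transcripts in these levels were not tested. Among neutrophil-like cells, 61 with at least 2 of the secondary granule genes Ngp, Camp and Ltf had an induced share of 61.4% (52.4% to 69.9%), and the other 824 had 75.3% (72.2% to 78.3%). Psmb6 was at 43.9 CPM (25.6 to 70.3) against 17.4 CPM (12.2 to 24.0), and Psmb8 at 87.8 CPM (60.8 to 123) against 147 CPM (131 to 164). The granule genes mark immature neutrophils, and these cells had a median of 6242 UMI against 2494.5. The part of depth was not tested. In B-like cells, those with Vpreb3 (1102) and those without (1813) had overlapping shares of 63.6% and 63.2%.

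Proteasome factors outside the Psm symbols partly followed the members. Of 16 listed genes, 14 had 50 or more UMI. Pomp, the chaperone needed to complete the core, was at 627 CPM in cDC1-like cells, 378 CPM in classical monocyte-like cells and 92.3 CPM in neutrophil-like cells. Sem1, a small subunit of the lid, went another way, with 1012 CPM in classical monocyte-like and 839 CPM in neutrophil-like cells. Nfe2l1, the transcription factor that raises proteasome genes when activity is low, was at 199.96 CPM in sinusoidal endothelial-like cells, and the next type, Kupffer-like cells, had 82.4 CPM. In neutrophil-like cells 11 of the 14 were at least 1.5-fold lower, near the 72.9% of all genes, and 1, Sem1, was higher.

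Class I peptide supply genes had their peaks in several types. Tap1 and Tap2, the peptide transporter, were highest in cDC1-like cells at 173 and 147 CPM. In these cells 3 of the 11 listed genes were at least 1.5-fold higher and 4 lower, beside 13.6% and 45.3% of all genes. The lower genes included those of class I itself. H2-K1, H2-D1 and B2m had 914, 1243 and 1372 CPM there, against 1886, 2022 and 2313 CPM over all typed cells. In neutrophil-like cells 8 of the 11 were lower, a share close to the 72.9% of all genes. Plasma-like cells had 1983 CPM of the chaperone calreticulin (Calr), and the next type, Kupffer-like cells, had 790.4 CPM.

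Interferon gamma response genes did not follow the immunoproteasome share. In cDC1-like cells 11 of 13 listed genes were at least 1.5-fold lower, against 45.3% of all genes, with a median log2 fold of -3.27 beside -0.45 for all genes. Irf1, the factor that drives many interferon gamma targets, had 53.8 CPM there and 53.8 CPM in plasma-like cells, the lowest levels of the types, Gbp4 had 1.05 CPM and Gbp3 had no UMI. The 1 higher gene was Irf8, which cDC1 need for their development. In sinusoidal endothelial-like cells 7 of 13 were higher and 2 lower, against 31.9% and 29.6% of all genes, with a median of 0.82 beside 0.06 for all genes. Iigp1, an interferon-induced GTPase, had 566 CPM there against 102 CPM in Kupffer-like cells, and Irgm1 had 249 CPM. Plasma-like cells, with as low an induced share, had a median of -1.96 beside -1.16 for all genes.

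Among the listed ubiquitin genes, Ubb was highest in the types lowest for the proteasome. Ubb reached 6316 CPM in the basophil-like type and 2869 CPM in the neutrophil-like type, and its lowest level was 1130.0 CPM in sinusoidal endothelial-like cells.

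Among 8069 other genes with 500 or more UMI, those whose log2 levels over the 13 types were most like the mean of Psmb8, Psmb9 and Psmb10 were Eif2b2 (Pearson r 0.935), Nudt14 (0.928), Nhp2 (0.928), Stoml2 (0.927), Hat1 (0.922), Mrpl40 (0.912), Thyn1 (0.907) and Snrpd3 (0.904). Because they were chosen for this likeness, a cDC1-like level above the neutrophil-like one is no separate finding. Nhp2, a ribonucleoprotein subunit, had 120.2 CPM in cDC1-like and 8.35 CPM in neutrophil-like cells.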

How the data were processed

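UMI counts of liver cells were analysed as deposited: whole-number counts per gene and barcode, not normalized, per the file headers and their values. The tools named per the submitters' processing notes are STAR, Seurat 2.3.4 and Cell Ranger 2.1.1, with build mm10, and the matrix header names software version 3.0.0. The way cells were called is not given in the sources used; the lowest barcode had 502 UMI.

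Of 11192 barcodes (67037274 UMI), 10366 had at least 500 UMI, 200 genes and at most 10% mitochondrial UMI. Scrublet (in scanpy 1.11.5) called 351 (3.39%) doublets, which were removed. A cell took a type when at least 3 of its markers had a UMI and no other of 19 marker lists had more than 1/2 as many; 73 cells had too few markers, 1427 had a second type, and types with at least 20 cells were kept. This rule and the splits within types were set after the data had been seen. The members and gene lists were chosen with earlier results of these data known.

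Counts were summed per type and scaled to a total of 1000000 UMI (CPM). Intervals were exact Poisson (CPM), Clopper-Pearson (shares) and conditional (ratios), at 95%, in Python 3.11.15 with scipy 1.17.1. Genes past 1.5-fold, with 1 CPM added, are descriptions without a test. Named were the catalytic and activator genes, and of each other group the 3 most abundant and the 2 with the widest range over types. Also named were the 2 with the highest fold in each type, the partner genes with the widest range, and the 8 genes most like the induced subunits. Other members named beside a count were chosen after their values were seen. A listed gene is not reported here. The reduced total omitted genes of ribosomal proteins, mitochondria, hepatocytes and haemoglobin. The folds and the conditional intervals of ratios were tested on simulated Poisson counts. The summing, the Poisson intervals and the shares were not tested in this way. The deposited counts were made from 2 labelled samples with 1 matrix, so no genotype entered.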

Additional observations from a re-analysis of the deposited data

How the results depend on the processing

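No paired analysis was possible because both labelled samples hold the same matrix and no test was run. Of the values answering a comparison, 51 under other settings stayed within their counting interval (counts within 1.5 times) and 7 moved; of the others, 263 stayed, 68 moved and 1 turned. With clusters in place of single-cell markers, the cDC1-like share was 76.9% and its sum of the members 7283 CPM, and the ratio of Psmb10 to Psmb7 there turned from 0.845 to 1.07. Several clusters were wider than the marker-assigned types. The cluster named cDC1 held 155 cells, 54 of them marker-assigned to cDC1. That named ILC1 held 416 cells, 22 of them marker-assigned to ILC1, and its share was 74.7%. The cause was not tested. With at most 5% mitochondrial UMI, the sinusoidal endothelial-like share was 56.6%, and ILC1-like cells (79.8%) stood above cDC1-like cells (79.0%). With the share taken as a mean over single cells, sinusoidal endothelial-like cells (54.1%) fell below plasma-like cells (54.5%). In the other settings cDC1-like cells had the highest share and plasma-like cells the lowest. Under the reduced total the sum was 10518.8 CPM in cDC1-like and 1831 CPM in neutrophil-like cells. A further total, chosen after seeing the data, omitted the 50 genes with the highest level in any type. Under it the sum was 9598 CPM in cDC1-like, 9699.8 CPM in plasma-like, 2701 CPM in neutrophil-like and 2669 CPM in basophil-like cells. Plasma-like cells were then highest and basophil-like cells lowest. These totals are smaller by construction. The count of higher members in cDC1-like cells ran from 11 to 17, that of lower members from 41 to 47 in neutrophil-like and 38 to 43 in basophil-like cells. ILC1-like (108024 UMI) and basophil-like cells limit single genes most: 3 UMI equal 27.8 and 19.0 CPM there.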
